A study of Mus musculus with 3 samples.

Results

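Accessible chromatin was described at 9 protein-coding genes of the Prader-Willi and Angelman locus on mouse chromosome 7: Herc2, Gabrg3, Gabra5, Atp10a, Ube3a, Snrpn, Ndn, Magel2 and Mkrn3. They were chosen by name, 9 of 21631 protein-coding genes in the gene table, and each was followed through its span with 5 kb on each side, called its window. Together the 9 windows do not overlap and make up 1.86 Mb, or 29.1% of the stretch of 6.38 Mb from Herc2 to Mkrn3 (chr7:56045124-62425153, mm10), which was also read as a whole. The data come from whole brain of C57BL6 mice, profiled by single-cell ATAC-seq with combinatorial indexing in 3 libraries, 1 for each of the nanowell versions named sciATACv1, sciATACv2 and sciATACv3 (v1, v2 and v3 below). In this assay the transposase Tn5 places barcoded adapters into open chromatin of nuclei. Each library has 1 list of accessible regions (peaks) with positions and no score. All 3 libraries share tissue and strain, and the labels do not say what separates the versions, how many animals were used or how old they were.

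Several genes of this locus are imprinted, which means that the copy from one parent is used and the other is silenced. Snrpn, Ndn, Magel2 and Mkrn3 are expressed from the paternal copy, under the control of an imprinting centre at the Snurf-Snrpn promoter, and their loss is tied to Prader-Willi syndrome. Ube3a, a ubiquitin ligase lost in Angelman syndrome, is expressed in neurons from the maternal copy, while a long paternal RNA, Snhg14, runs against it from the Snrpn side. Herc2 and the GABA-A receptor subunit genes lie beside this domain and are used from both copies. The peak lists give no allele, so open chromatin of the maternal and paternal copies is pooled in every value here.

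The v1 list held 622754 peaks, the v2 list 850991 and the v3 list 512023, with median widths of 500, 500 and 726 bp. Sequencing depth is unknown, so windows were compared between libraries as shares of all listed peaks. With 1 library per version there is no spread between replicates and no test, and all intervals cover counting error only. In lists pooled over nuclei, fewer nuclei of a type and less open chromatin per nucleus cannot be told apart. Of 18 marker genes of brain cell types, 17 had a peak by an end of the gene (1 kb or less away) in v1 and 18 in v2 and v3. By the same rule 81.0% of all protein-coding genes had one in v1, 84.8% in v2 and 80.6% in v3. Of 6 liver genes 3 had such a peak in each list. With so few genes this is only a rough look at the tissue and was not tested.

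RefSeq's promoter table (GRCm38.p6, the same build as mm10) held 13 promoters of the 9 genes, each from 250 bases before to 50 after a start of transcription. Snrpn had 4 of them, Herc2 2 and the other genes 1 each. The 250 bases before the start are shown for the Snurf-Snrpn start at the imprinting centre and for the 4 other genes of the imprinted domain with known parental use, 5′ to 3′ on the gene's strand. Capitals mark the motifs searched on both strands: CGCATGCG, GCCATNTT, GGGCGG or TATAAA. The Ube3a stretch is chr7:59228500-59228749 (+), with Snrpn start 1 at chr7:60005200-60005449 (-), Ndn at chr7:62348027-62348276 (+), Magel2 at chr7:62376729-62376978 (+) and Mkrn3 at chr7:62420154-62420403 (-).
Ube3a: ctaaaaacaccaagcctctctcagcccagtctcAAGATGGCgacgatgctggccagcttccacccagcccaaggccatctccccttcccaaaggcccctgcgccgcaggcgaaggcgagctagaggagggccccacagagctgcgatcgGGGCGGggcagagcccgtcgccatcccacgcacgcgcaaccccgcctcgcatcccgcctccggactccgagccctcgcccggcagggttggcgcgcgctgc
Snrpn start 1: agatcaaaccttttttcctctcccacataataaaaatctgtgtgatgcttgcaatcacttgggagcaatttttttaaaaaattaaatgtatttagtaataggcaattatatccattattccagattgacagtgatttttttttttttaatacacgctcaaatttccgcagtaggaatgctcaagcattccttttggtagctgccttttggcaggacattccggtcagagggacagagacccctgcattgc
Ndn: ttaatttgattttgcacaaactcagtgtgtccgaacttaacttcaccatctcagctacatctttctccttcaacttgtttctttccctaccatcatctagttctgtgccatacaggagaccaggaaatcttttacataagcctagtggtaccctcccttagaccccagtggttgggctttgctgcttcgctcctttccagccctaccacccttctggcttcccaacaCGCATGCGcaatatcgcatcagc
Magel2: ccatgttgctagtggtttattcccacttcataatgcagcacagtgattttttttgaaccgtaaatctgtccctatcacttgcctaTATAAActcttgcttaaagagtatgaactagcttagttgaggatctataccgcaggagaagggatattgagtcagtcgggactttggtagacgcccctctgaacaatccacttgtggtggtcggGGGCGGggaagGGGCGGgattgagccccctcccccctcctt
Mkrn3: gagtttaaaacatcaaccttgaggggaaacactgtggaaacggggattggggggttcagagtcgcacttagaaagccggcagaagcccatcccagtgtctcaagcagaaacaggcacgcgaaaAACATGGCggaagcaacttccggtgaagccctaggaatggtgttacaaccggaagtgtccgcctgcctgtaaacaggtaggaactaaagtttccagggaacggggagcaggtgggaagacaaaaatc

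Base composition set these promoters apart from each other. The Ube3a promoter held 29 CG dinucleotides in its 300 bases and the Herc2 promoters 29 and 38, against a median of 13 over 21045 promoters of protein-coding genes (quartiles 4 and 25). Atp10a had 20, Mkrn3 15, Gabrg3 and Gabra5 13 each, Ndn 11 and Magel2 10. The 4 Snrpn starts were poorest, with 7, 4, 3 and 2. GGGCGG, the box bound by SP1 family factors, lay in 7 of the 13 promoters, those of Herc2, Gabrg3, Atp10a, Ube3a, Ndn and Magel2, and in 46.7% of all promoters. GCCATNTT, the core read by YY1, lay in the promoters of Ube3a and Mkrn3 and in 6.41% of all promoters. TATAAA lay in the promoters of Magel2 and Snrpn start 2, farther upstream than a TATA box usually does, and in 12.7% of all promoters. The longer palindrome read by NRF1 lay in 0 of the 13 and in 1.34% of all promoters.

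An 8-base palindrome, CGCATGCG, was shared by the 4 Snrpn starts and by Ndn. It was singled out after the promoters had been read, and the NRF1 palindrome is the same with a further base on each side, so the searches overlap. It lay in 5 of the 13 promoters and in 2.53% of all promoters of the same length. The stretches of 30 bases that hold it are shown with the palindrome in capitals. In mm10 they lie at chr7:60005150-60005179, chr7:60048031-60048060, chr7:60140285-60140314 and chr7:60450222-60450251 on the minus strand for the Snrpn starts, and at chr7:62348243-62348272 on the plus strand for Ndn.
Snrpn start 1: cagccattgcctgggaCGCATGCGtaggga
Snrpn start 2: gcaaacatgcaCGCATGCGtcgttgaaggt
Snrpn start 3: gcaaacatccaCGCATGCGtgatgggaggg
Snrpn start 4: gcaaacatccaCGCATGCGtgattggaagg
Ndn: gcttcccaacaCGCATGCGcaatatcgcat
In Ndn the palindrome began 23 bases before the start of transcription, and in Snrpn starts 2, 3 and 4 it began 71, 78 and 63 bases before it. In Snrpn start 1 it began 36 bases after the start. Snrpn starts 3 and 4 were identical at 28 of the 30 bases, and each was identical to start 2 at 24. These starts thus share sequence and are not independent of each other. Ndn was identical to each of Snrpn starts 2, 3 and 4 at 15 of 30 bases, 8 of them the palindrome itself. A match in these letters is a description of the sequence and was not tested as a binding site.

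In each list all 9 genes had a peak no more than 1 kb from an end of their span, where 81.0% of protein-coding genes did so in v1, 84.8% in v2 and 80.6% in v3. Of the 13 promoters, 13 were overlapped by a peak in v1, 12 in v2 and 12 in v3, against 72.7%, 78.2% and 73.1% of the 21045 promoters. In all 3 lists 12 of the 13 were overlapped, against 69.8% of all promoters. Without peaks of 500 bp, Atp10a had none that close to an end of its span in v1, which left 8 of 9. Among the promoters the exception was Snrpn start 4, the upstream end that Snrpn shares with Snhg14 in the table. A v1 peak of 803 bp covered it (chr7:60449634-60450436). The nearest peak lay 25129 bp away in v2 and 19338 bp away in v3.

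**Figure D1:**
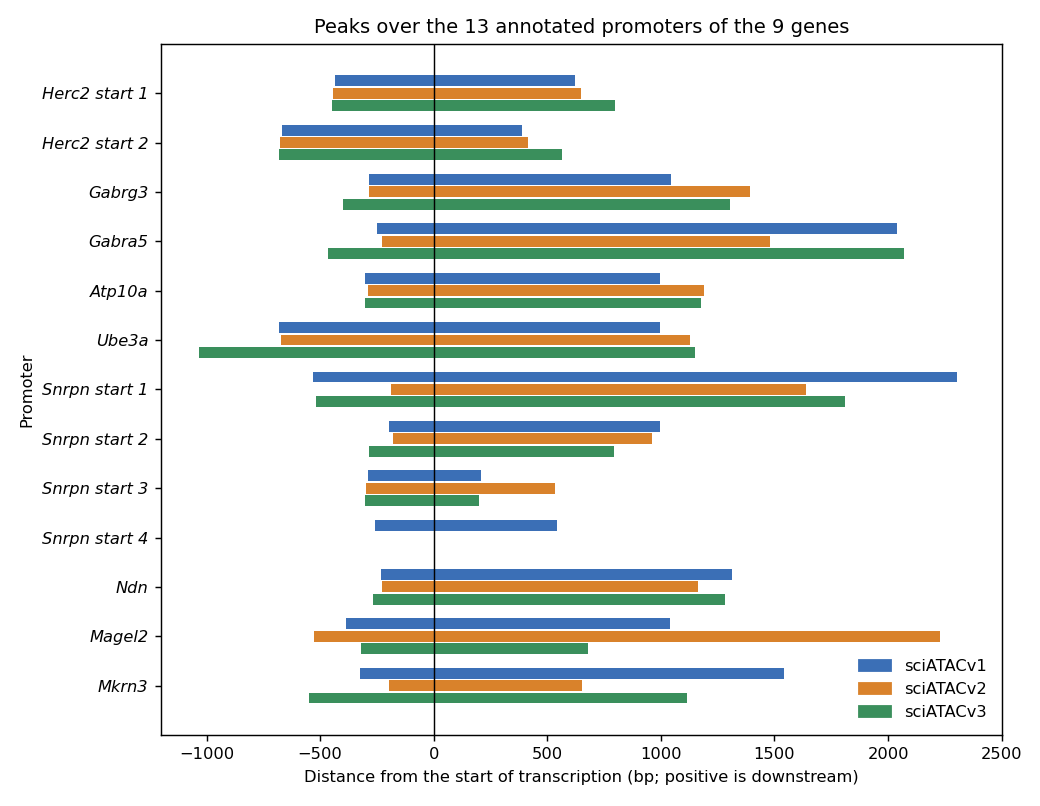
Extent of the peak that overlaps each of the 13 promoters, in bp from the start of transcription (vertical line; positive is downstream), with 1 bar per library (v1 blue, v2 orange, v3 green). The 12 promoters other than Snrpn start 4 had a bar in every library, and most bars reached farther downstream than upstream.

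The Snurf-Snrpn promoter (start 1), where the imprinting centre lies, was covered by a peak of 2835 bp in v1, 1826 bp in v2 and 2326 bp in v3. The v2 peak was the shortest, and the stretch common to the 3 peaks was 1826 bp, or 64.4% of the bases covered by any of them. The peak reached 2303, 1636 and 1809 bp into the gene, against 531, 189 and 516 bp upstream of the start. Snrpn start 2 lay under peaks of 1195, 1137 and 1076 bp. Snrpn start 3 had peaks of 500, 835 and 500 bp, so in v1 and v3 it was at the minimum width of the lists. The 4 starts therefore ran from wide peaks in each list at the start nearest the gene body to a peak in v1 alone at the far end.

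Necdin, the product of Ndn, is a MAGE family protein of neurons and a growth suppressor. Its promoter peak measured 1545 bp in v1, 1389 bp in v2 and 1549 bp in v3, and 87.9% of the covered bases were common to the 3 lists. This was the highest agreement among the members' promoters, and since the gene is 1652 bp long the peak ran over most of it. Magel2, another MAGE family gene that acts in endosomal protein recycling, had promoter peaks of 1426, 2753 and 1003 bp, and 36.4% of the covered bases were common. Mkrn3, a makorin RING finger gene tied to the timing of puberty, had promoter peaks of 1867, 851 and 1665 bp, with 40.7% in common. The library with the widest peak thus differed between these neighbours, v2 for Magel2 and v1 for Mkrn3. Both genes are intronless or nearly so, and each start was covered in every list.

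At the Ube3a promoter the peak measured 1679 bp in v1, 1803 bp in v2 and 2183 bp in v3, and 76.5% of the covered bases were common. A single peak per list covered both Herc2 starts, of 1057, 1090 and 1243 bp, with 85.0% in common. Herc2 encodes a giant ubiquitin ligase that acts with Ube3a. Atp10a, a phospholipid-transporting ATPase, had promoter peaks of 1300, 1476 and 1479 bp and 85.9% in common. The GABA-A subunit genes had peaks of 1326, 1675 and 1703 bp (Gabrg3) and 2290, 1711 and 2535 bp (Gabra5), with 74.0% and 67.5% in common. Over the covered promoters of the 9 genes the median peak width was 1326 bp in v1, 1433 bp in v2 and 1514 bp in v3, against 1351, 1421 and 1755 bp over all covered promoters of protein-coding genes.

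Away from the promoters the members differed in how densely they were filled with peaks. Ube3a (chr7:59228750-59310837, plus strand, 82.1 kb) had 61 v1 peaks in its window, 58 v2 peaks and 48 v3 peaks, which is 6.62, 6.30 and 5.21 peaks per 10 kb. These peaks covered 54.1%, 55.2% and 65.1% of the window, so v3 covered most with the fewest peaks. Of 2996 protein-coding genes with a window of like length (within 1.5 times), 99.3% had a lower density than Ube3a in v1, 84.6% in v2 and 89.4% in v3.

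Herc2 (chr7:56050124-56231800, plus strand, 182 kb) stood as high, with 128, 126 and 100 peaks, or 6.68, 6.57 and 5.22 per 10 kb. Its peaks covered 53.5%, 58.4% and 58.8% of the window, and 99.2%, 88.8% and 91.4% of 1327 genes of like length had a lower density. The densities of these genes lay close together, at 6.62 against 6.68, 6.30 against 6.57 and 5.21 against 5.22 per 10 kb, and their order was not tested. These ubiquitin ligase genes were the densest members in all 3 lists.

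Gabra5 (chr7:57407669-57591016, minus strand) encodes an alpha subunit of GABA-A receptors found outside synapses in hippocampus. Its window held 57, 73 and 55 peaks, or 2.95, 3.78 and 2.84 per 10 kb, and 21.0%, 31.7% and 27.7% of it was covered. Atp10a (chr7:58656142-58830244, plus strand) held 63, 88 and 64 peaks, or 3.42, 4.78 and 3.48 per 10 kb, with 27.9%, 37.3% and 31.2% covered. Both genes lay below the middle of genes of like length: 30.6%, 23.3% and 37.8% of 1314 genes were less dense than Gabra5, and 37.8%, 36.3% and 48.4% of 1401 genes were less dense than Atp10a.

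Gabrg3 (chr7:56716463-57387215, minus strand, 671 kb) encodes a gamma subunit of the same receptors and was the member with the most peaks. Its window held 177 v1 peaks, 378 v2 peaks and 229 v3 peaks, or 2.60, 5.55 and 3.36 per 10 kb, and 19.04%, 44.5% and 32.2% of it was covered. In v1 it ranked low among 226 genes of like length, of which 23.0% were less dense. In v2 and v3 it lay near the middle, with 51.3% and 45.1% less dense.

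Snrpn, which encodes a spliceosome protein of neurons, was the sparsest of the long members. Its span in the table (chr7:59982495-60450177, minus strand, 468 kb) includes far upstream starts, and the window held 44, 61 and 36 peaks, or 0.921, 1.28 and 0.754 per 10 kb. Only 7.22%, 9.31% and 7.40% of it was covered, and 3.41%, 2.68% and 6.08% of 411 genes of like length were less dense. The span divided sharply at the Snurf-Snrpn start. The short part of 22.7 kb from that start to the end of the gene held 13, 14 and 13 peaks, or 5.73, 6.17 and 5.73 per 10 kb. The 445 kb upstream of it held 28, 43 and 21, or 0.629, 0.966 and 0.472 per 10 kb. These densities leave out the flanks, and the Ube3a span without flanks had 7.19, 6.70 and 5.60 per 10 kb. The short part was thus below the Ube3a span in v1 and v2 and slightly above it in v3. The upstream part had a density below that of each long member.

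The short genes had few peaks in all. Ndn (chr7:62348277-62349928) had 2 peaks in its window in each list, the promoter peak and a peak of 500 bp near 3.16 kb from the start. Magel2 (chr7:62376979-62381640) had 6, 5 and 3. Mkrn3 (chr7:62417593-62420153) had 3, 2 and 1. At these numbers a difference of 1 to 3 peaks between lists was within counting error, as the intervals of the share ratios show.

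**Figure D2:**
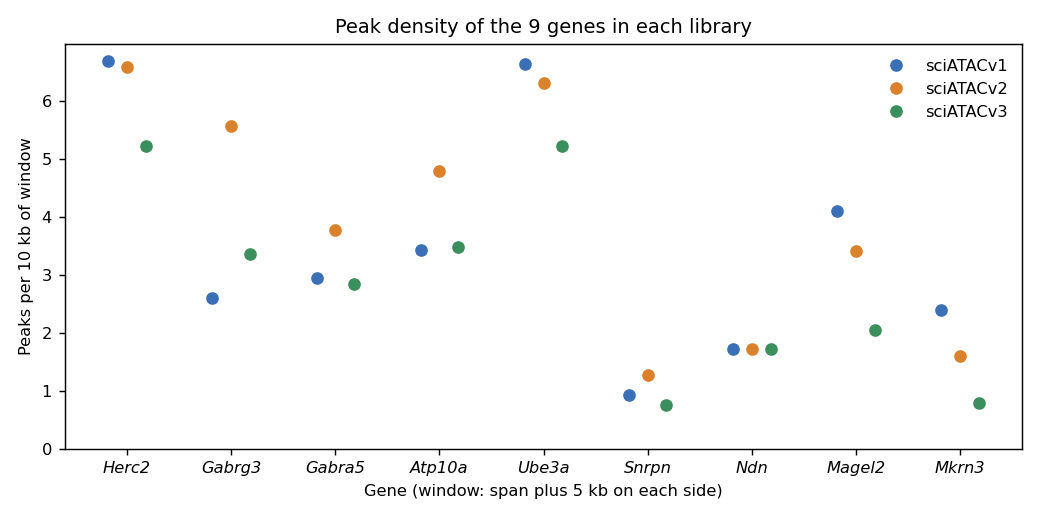
Peaks per 10 kb of window (gene span plus 5 kb on each side) for the 9 genes in each library, 1 point per library. Herc2 and Ube3a were highest in v1, v2 and v3, Snrpn was lowest in v1, v2 and v3 with 0.754 to 1.28, and Gabrg3 showed the widest gap between v1 (2.60) and v2 (5.55).

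The widest open regions of most long members lay inside the gene and not at its start. Merging the 3 lists gave regions that can be wider than any single peak in them, and only those with a peak in every list were ranked. The widest of Herc2 spanned 7184 bp (chr7:56199990-56207173), centred 153 kb from the nearest start in the table. That of Gabrg3 spanned 4420 bp (chr7:56764747-56769166), 620 kb from the start and close to the end of the gene, and that of Atp10a 4030 bp (chr7:58777143-58781172), 121 kb in.

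Ube3a had 3 regions of nearly the same size, 3993, 3806 and 3785 bp, centred 73.4, 51.98 and 61.6 kb into the gene. All 3 lie where Snhg14 is annotated on the opposite strand (chr7:59272737-60450177). The stretch of Ube3a under Snhg14 (38.1 kb) had 29, 27 and 18 peaks in v1, v2 and v3, and the rest of the gene (44.0 kb) 31, 29 and 29. Outside the antisense stretch the lists ranged from 29 to 31 peaks, while under it v3 listed fewest. These counts are not scaled to the lists, and v3 had the shortest list and the highest median peak width. In the 3 wide regions v3 peaks covered the most bases, 3880, 3733 and 3659 bp. The v1 peaks covered 3278, 2000 and 2991 bp of them, and the v2 peaks 3533, 3192 and 3502 bp. These regions were picked by merged width among those with a peak in every list, so they do not speak for the rest of the stretch. Whether the lower v3 count reflects less open chromatin was not tested. Peaks carry no strand, so those under Snhg14 cannot be given to either transcript.

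In Gabra5 the widest region, 3765 bp, was centred 87.2 kb into the gene (chr7:57420958-57424722). The next, 3318 bp (chr7:57589732-57593049), was centred at -81.3 kb from the annotated start, upstream of it and at the end of the annotated span. The widest Snrpn region, 2989 bp (chr7:59983181-59986169), lay at the 3′ end of the gene, 20.5 kb from the Snurf-Snrpn start, and the third by width, 2895 bp, was the Snurf-Snrpn promoter itself. In Ndn, Magel2 and Mkrn3 the widest region was the promoter, with 1580, 3270 and 2374 bp.

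The share of merged regions found in every list also differed by gene. Of 719 merged regions in the 9 windows, 319 were met by a peak of every list, a share of 44.4% (exact Clopper-Pearson 95% interval 40.7 to 48.1). The share was 39.0% of merged regions on all chromosomes, 38.6% along the whole locus and 42.7% on chromosome 7. The value of chromosome 7 lay within the interval. Ube3a had 36 of 42 regions in all 3 lists (85.7%, 71.5 to 94.6) and Herc2 65 of 98 (66.3%, 56.1 to 75.6). Atp10a had 42 of 85 (49.4%, 38.4 to 60.5) and Gabra5 28 of 75 (37.3%, 26.4 to 49.3). Snrpn had 25 of 70 (35.7%, 24.6 to 48.1) and Gabrg3 117 of 341 (34.3%, 29.3 to 39.6). The intervals of Ube3a and Herc2 lay above 39.0%, while those of Atp10a, Gabra5, Snrpn and Gabrg3 included it. Regions were merged at any overlap, which joins more peaks where more of a window is covered. Peaks of each list covered 53.5% to 65.1% of the Ube3a and Herc2 windows. For Atp10a, Gabra5, Snrpn and Gabrg3 they covered 7.22% to 44.5%. The 39.0% was not matched for coverage, so the higher shares were not read as better agreement between libraries. Ndn had 2 of 2 regions in all lists, Magel2 3 of 4 and Mkrn3 1 of 2.

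The regions missing from a list were not spread evenly over the libraries. In Gabrg3, 116 of 341 regions (34.0%) had a peak in v2 alone and 65 in v2 and v3, against 2 in v1 alone and 1 in v1 and v3. No Ube3a region was in v2 alone, where 26.1% of all merged regions were. In Snrpn 21 of 70 (30%) were in v2 alone, and 8 in v1 alone. Of 825954 merged regions on all chromosomes, 57244 were in v2 and v3, 40385 in v1 alone and 11275 in v1 and v3. Regions in v1 alone or in v1 and v3 were thus uncommon on all chromosomes too. Of 115 regions seen in v2 alone within the Gabrg3 span, 72.2% had the minimum width of 500 bp, against 79.8% of such regions on all chromosomes.

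Between libraries, Gabrg3 was the 1 member with a difference in peak share beyond counting error and past 1.5-fold. Its share of all listed peaks was 1.56 times as high in v2 as in v1 (95% interval 1.304 to 1.88) and 1.57 times as high in v3 as in v1 (1.29 to 1.93). Between v3 and v2 the ratio was 1.01 (0.851 to 1.19). The comparisons with v1 share that library and are not independent. Of 226 genes with a window of like length, 97.3% had a lower ratio in v2 against v1, and 97.3% in v3 against v1.

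Herc2 had a lower share in v2 than in v1. Its share was 0.720 times that of v1 (0.559 to 0.929), while v3 against v1 gave 0.950 (0.724 to 1.24) and v3 against v2 gave 1.32 (1.004 to 1.73). Ube3a had ratios of similar size, 0.696 (0.477 to 1.01), 0.957 (0.642 to 1.42) and 1.38 (0.918 to 2.05), all with intervals that included 1. Of genes of like length, 4.52% had a lower v2 to v1 ratio than Herc2 and 3.405% a lower one than Ube3a.

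The remaining members gave ratios near 1 or wide intervals. For Snrpn they were 1.01 (0.677 to 1.53) for v2 against v1, 0.995 (0.622 to 1.58) for v3 against v1 and 0.981 (0.631 to 1.505) for v3 against v2. For Atp10a they were 1.02, 1.24 and 1.21, and for Gabra5 0.937, 1.17 and 1.25, in the same order, with intervals that included 1 in each case. Magel2 had 0.610 (0.147 to 2.40) for v2 against v1 and Mkrn3 0.488 (0.0407 to 4.26), which shows how little 1 to 6 peaks fix a ratio.

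**Figure D3:**
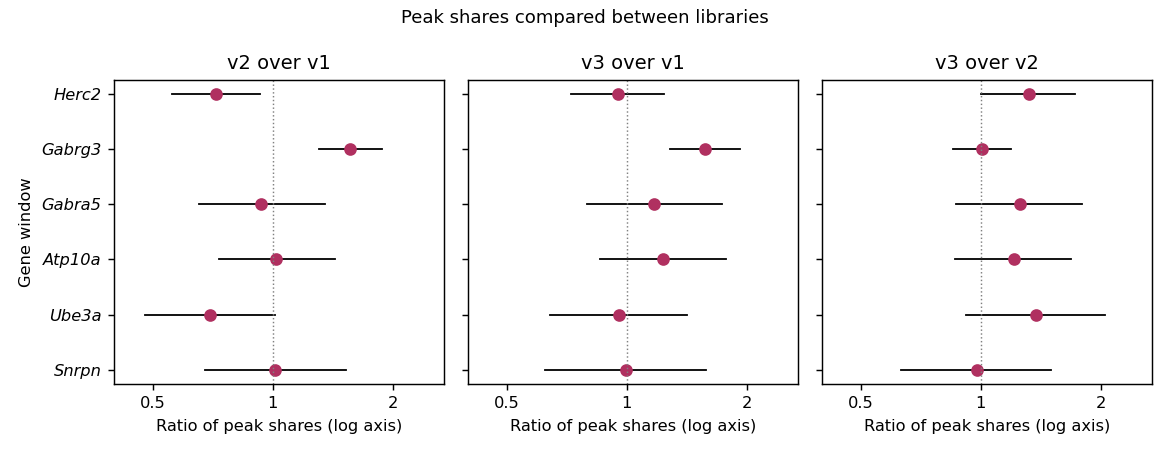
Ratio of peak shares (log axis) between libraries for the 6 members with at least 30 peaks over the 3 lists, with exact 95% intervals as bars that cover counting error only; the dotted line marks equal shares. Gabrg3 lies right of the line in both comparisons with v1 (1.56 and 1.57) and on it for v3 over v2 (1.01), and Herc2 lies left of it for v2 over v1 (0.720).

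The same fold was counted over all protein-coding genes. Among 19887 genes with at least 1 peak, 14.0% were past 1.5-fold higher in v2 than v1 and 8.26% lower, and of the 9 members 1 was higher (Gabrg3) and 2 lower (Magel2 and Mkrn3). For v3 against v1, 16.3% were higher and 10.1% lower, with the same 3 members. For v3 against v2, 15.4% were higher and 13.1% lower, with 1 member higher (Ndn, at 2 peaks in each list) and 0 lower. The log2 share ratio used here has 0.5 peaks added, scaled to each list.

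Among 9711 genes with at least 30 peaks over the 3 lists, the shares past 1.5-fold were 6.66% higher and 2.98% lower for v2 against v1, 10.6% and 4.47% for v3 against v1, and 10.8% and 5.76% for v3 against v2. Of the 6 members in this set, Gabrg3 was higher in v2 and in v3 than in v1, and the other counts were 0. The median log2 share ratio of the 9 members was -0.36 for v2 against v1, -0.01 for v3 against v1 and 0.27 for v3 against v2, against -0.03, 0.10 and 0.13 over all genes. Among the genes with at least 30 peaks the members' medians were -0.04, 0.11 and 0.30, against -0.09, 0.09 and 0.19. The median of -0.36 was that of Ndn and rests on genes with few peaks.

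Pooled over the 9 windows, there were 541 v1 peaks, 793 v2 peaks and 538 v3 peaks. The pooled ratio of shares was 1.07 (0.960 to 1.199) for v2 against v1, 1.21 (1.07 to 1.37) for v3 against v1 and 1.13 (1.01 to 1.26) for v3 against v2. Without Gabrg3, an alternative chosen after its values were seen, the ratios were 0.834 (0.723 to 0.963), 1.03 (0.884 to 1.205) and 1.24 (1.06 to 1.44). The pooled values of the locus genes in v2 and v3 against v1 therefore turned on this gene.

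Peaks were then counted along Gabrg3. The span was divided into 10 equal parts of 67.1 kb from the start of transcription. The first part had 20, 32 and 14 peaks in v1, v2 and v3, with share ratios of 1.17 (0.649 to 2.16) for v2 and 0.851 (0.398 to 1.77) for v3 against v1. The other 9 parts held 154, 342 and 213 peaks, with ratios of 1.63 (1.34 to 1.98) and 1.68 (1.36 to 2.08). The intervals of the first part and of the rest overlapped, so a difference between them was not shown. The lowest v1 value was in the eighth part, with 7 peaks against 38 in v2 and 21 in v3, and ratios of 3.97 (1.75 to 10.5) and 3.65 (1.49 to 10.2). This part was singled out after the values were seen.

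Peak width at Gabrg3 was set beside that of each list, with no test. In its window 62.1% of peaks were at the minimum of 500 bp in v1, 50.8% in v2 and 36.2% in v3, against 59.8%, 53.1% and 42.2% over each whole list. Counting only peaks wider than 500 bp left 67 for v1, 186 for v2 and 146 for v3. The log2 share ratio was then 0.80 for v2 and 0.88 for v3 against v1, against 0.64 and 0.65 over all peaks.

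**Figure D4:**
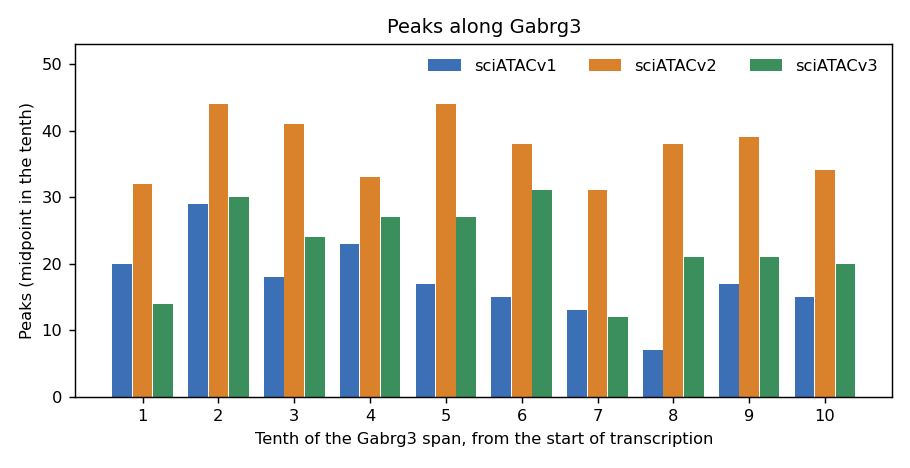
Peaks with their midpoint in each of 10 equal parts of the Gabrg3 span, counted from the start of transcription, 1 bar per library (v1 blue, v2 orange, v3 green). The v2 bars (31 to 44) were above the v1 bars (7 to 29) in each of the 10 parts, and the v3 bars were above v1 in parts other than the first and the seventh.

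For 5 members with at least 30 peaks, the protein-coding gene elsewhere with the most similar densities was found by the distance in 3 values of log2 peaks per 10 kb, 1 per library, among genes of like length. For Herc2 it was Arid2 with 82, 86 and 65 peaks (distance 0.074), for Atp10a Enthd1 with 43, 60 and 43 (0.042) and for Gabra5 Pcdha9 with 53, 79 and 58 (0.17). For Snrpn it was Ano2 with 38, 44 and 25 (0.23), and for Gabrg3 it was Smyd3 with 186, 314 and 175 (0.35). The largest of these 5 distances was thus that of Gabrg3. With 3 values per gene, likeness says little beyond a shared density.

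Along the whole locus the peaks gathered in islands. On its 6.38 Mb the v1 list had 1417 peaks, the v2 list 2006 and the v3 list 1275, or 222, 314 and 199.8 per Mb, above the 190.3, 255 and 180.4 of chromosome 7. The ratios to chromosome 7 were 1.17 (1.11 to 1.23), 1.23 (1.18 to 1.29) and 1.11 (1.05 to 1.17). Among 366 stretches of the same length tiled over the chromosomes, those with fewer peaks made up 24.3% for v1, 28.1% for v2 and 45.6% for v3, so the locus was above its own chromosome but below most such stretches. The 9 windows held 38.2%, 39.5% and 42.2% of the locus peaks on 29.1% of its length. The share of all peaks that fell in the locus had a ratio of 1.04 (0.967 to 1.11) for v2 against v1, 1.09 (1.01 to 1.18) for v3 against v1 and 1.06 (0.984 to 1.13) for v3 against v2. Those of chromosome 7 were 0.982, 1.15 and 1.17.

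In bins of 100 kb the count ran from 2 to 72 peaks in v1 (median 14), from 3 to 70 in v2 (median 29) and from 0 to 60 in v3 (median 15). Only whole bins were counted, and the last ends before Ndn, so Ndn, Magel2 and Mkrn3 lie in no bin. Islands lay over Herc2, over Ube3a and over the stretch from Ipw to the Snurf-Snrpn start. The bin with the end of Herc2 held 72, 70 and 57 peaks, and the bin with most of Ube3a held 69, 69 and 55. Poor stretches lay between islands, and the 399 kb between Atp10a and Ube3a held 45, 66 and 44, or 1.13, 1.66 and 1.10 per 10 kb.

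**Figure D5:**
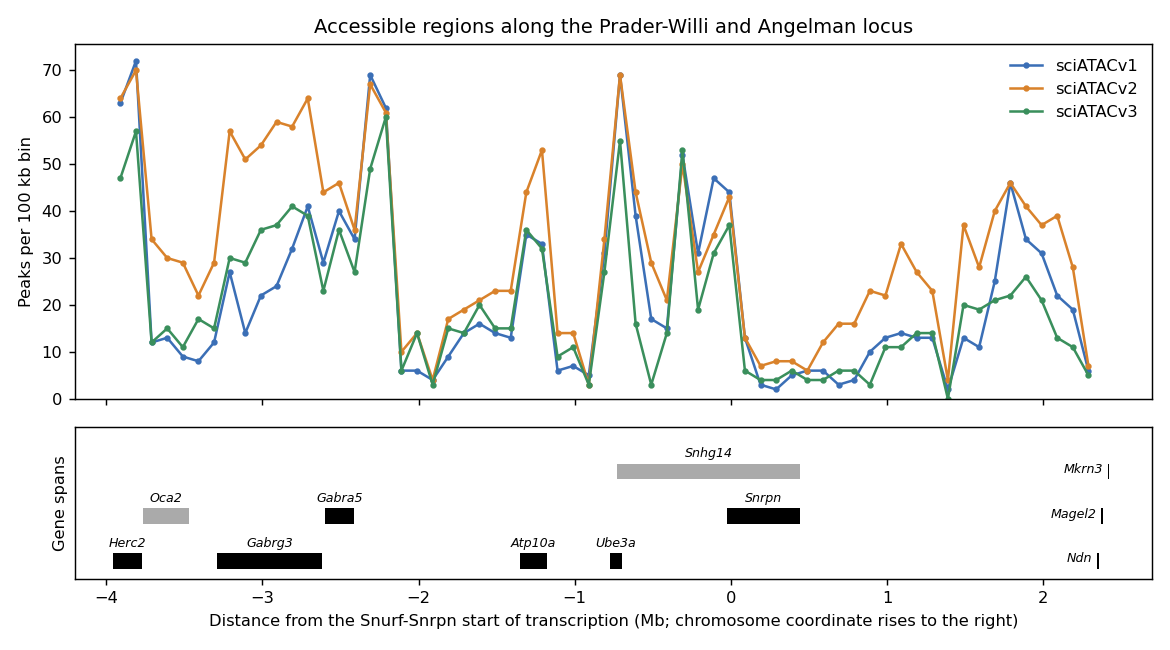
Peaks per 100 kb bin along the locus (top; v1 blue, v2 orange, v3 green) over the spans of the 9 genes (black) and of Oca2 and Snhg14 (grey), in Mb from the Snurf-Snrpn start. The last bin ends before Ndn, so no point covers Ndn, Magel2 or Mkrn3. Peaks rise over Herc2, Ube3a and toward the Snurf-Snrpn start in v1, v2 and v3, and the v2 line runs above v1 over Gabrg3.

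Upstream of the Snurf-Snrpn start the chromatin listed as open became scarce. The longest stretch of the locus without a peak in any list, 65.8 kb (chr7:60172725-60238525), lay inside the upstream part of the Snrpn span. The next were 63.0 kb (chr7:61314955-61377942), between Snrpn and Ndn, and 54.0 kb (chr7:59803357-59857399), downstream of Snrpn under Snhg14. The 1.90 Mb between Snrpn and Ndn held 289, 483 and 229 peaks, or 1.52, 2.54 and 1.21 per 10 kb. Its share was 1.22 times as high in v2 as in v1 (1.05 to 1.42) and 0.788 times as high in v3 as in v2 (0.670 to 0.924). The 71.9 kb from Ndn to Mkrn3 held 16, 11 and 9 peaks, or 2.23, 1.53 and 1.25 per 10 kb, with intervals of each ratio that included 1.

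Within the Snrpn-Ndn stretch lies a family of microRNA hairpins, Mir344, set apart here after the values had been seen. Of 14 hairpins of the locus in RefSeq's table, 13 belonged to this family, and all 13 were overlapped by a peak in v1, in v2 and in v3. Over 1005 hairpins in the table, 46.3% were overlapped in v1, 63.4% in v2, 46.0% in v3 and 36.7% in all 3 lists. Mir6389, inside Gabra5, had no peak in any list. Each of the 13 hairpins had a peak of its own, with a median width of 1519 bp (500 to 2996) in v1, 1144 bp (706 to 2483) in v2 and 1390 bp (500 to 2913) in v3. The hairpins lie near each other and share sequence, so they are not independent. Of 19 mature names of the family, 6 share the seed GUCAGGC, and these are shown with the seed (bases 2 to 8) in capitals.
mmu-miR-344-5p: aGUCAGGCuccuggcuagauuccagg
mmu-miR-344b-5p: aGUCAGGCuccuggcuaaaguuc
mmu-miR-344c-5p: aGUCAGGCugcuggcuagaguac
mmu-miR-344d-1-5p: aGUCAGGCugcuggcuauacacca
mmu-miR-344d-3-5p: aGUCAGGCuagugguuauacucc
mmu-miR-344g-5p: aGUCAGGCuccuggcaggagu

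Between Ube3a and Snrpn, Snhg14 carries tandem arrays of small nucleolar RNA genes, known as background for Snord115 toward Ube3a and Snord116 toward Snrpn. In the table the first array, next to Ube3a (chr7:59347173-59619095), held 134 snoRNA genes with a median length of 79 bp. The v1 list had 54 peaks in it, the v2 list 78 and the v3 list 19. The v3 share was 0.428 times that of v1 (0.240 to 0.734) and 0.405 times that of v2 (0.231 to 0.675), the lowest of the stretches of the locus compared in this way. In v1 34 of the 134 genes lay under a peak, in v2 39 and in v3 8.

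The second array, with Ipw (chr7:59619158-59980945), held 72 snoRNA genes, 18 of them named Snord116. It had 172, 150 and 138 peaks, with a v3 to v1 ratio of 0.976 (0.774 to 1.23) and a v2 to v1 ratio of 0.638 (0.509 to 0.799). Under a peak lay 39, 34 and 26 of its genes. These were 54.2%, 47.2% and 36.1% of the second array, against 25.4%, 29.1% and 5.97% of the first. Of 1134 snoRNA genes elsewhere, 42.1%, 54.4% and 29.4% were under a peak. The second array was thus above that share in v1 and v3 and below it in v2, while the first was below it in each list. Over both arrays 73, 73 and 34 of 206 genes were under a peak. The array copies are close to identical in sequence, and the part that read placement among copies had in these counts was not tested.

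The neighbours of the imprinted genes gave a range in which the members fall. Snhg14 held 320, 336 and 231 peaks over its 1177 kb and had a v2 to v1 ratio of 0.768 (0.657 to 0.898). Ipw held 37, 42 and 43, and Snurf, which shares its promoter with Snrpn, 17, 19 and 17. Peg12, a paternally expressed gene beyond Mkrn3, had 2, 1 and 1. Oca2, a melanosome transporter gene between Herc2 and Gabrg3, had 43, 102 and 42. Its v2 to v1 ratio was 1.74 (1.204 to 2.54), its v3 to v1 ratio 1.19 (0.758 to 1.86) and its v3 to v2 ratio 0.684 (0.466 to 0.989). Outside the locus border beside Herc2, Tubgcp5 had 20, 25 and 22 peaks, Cyfip1 52, 62 and 43, Nipa2 18, 16 and 17 and Nipa1 20, 26 and 18. Each of these 4 had intervals that included 1 in the 3 comparisons.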

How the data were processed

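The authors deposited 1 list of peaks per library, with chromosome, start and end as coordinates and no score. ArchR and MACS2 were used, on build mm10, per the submitters' processing notes. The aligner, tool versions and calling threshold were not given in the sources used here, so the threshold could not be varied and peak width stood in for it. Gene spans, starts, promoter and microRNA sequences came from RefSeq tables of GRCm38.p6. No genome sequence or exon annotation was used, so peaks were not assigned to exons or introns. Peaks were counted in a window at an overlap of at least 1 bp, with 1-based coordinates. Share ratios have exact conditional binomial 95% intervals, and a fold of 1.5 counted as called. The steps were tested on simulated data. Python 3.11.15, numpy 2.4.6, pandas 2.3.3 and scipy 1.17.1 were used. The genes named are the 9 members, neighbours from a list, and 1 gene of like density for each of 5 long members, and a few other items are left unreported. Members and lists were chosen with earlier results of these data known. Alternatives changed the window, the peak width, peaks to covered length, the overlap, the distance to an end, the bin and the pseudocount.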

Additional observations from a re-analysis of the deposited data

How the results depend on the processing

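Of 50 alternatives to the values on the 9 genes and the locus, 38 stayed near the value reported (within its counting interval, or for counts within 1.5 times) and 12 moved farther. A reversal was defined only for ratios past 1.5-fold, and none of these values was one, so no reversal could be counted. With gene spans alone the members' median log2 share ratio was -0.17 for v2 against v1 (reported as -0.36) and 0.19 for v3 against v1 (reported as -0.01). Without Gabrg3 the pooled log2 ratio changed sign for v2 against v1, at -0.26 (reported as 0.10), and was 0.046 for v3 against v1 (reported as 0.27). Regions found in all 3 lists made up 36.0% when 50% of a region had to be covered and 39.3% among peaks wider than 500 bp (reported as 44.4%). With these wider peaks the locus held 86.2, 143 and 113 peaks per Mb in v1, v2 and v3, fewer by construction, and its ratio to chromosome 7 was 1.09 in v1 (reported as 1.17) and 1.14 in v2 (reported as 1.23). By covered length that ratio was 1.17 in v2. For Gabrg3 alone 15 alternatives, chosen after its values were seen, stayed within the interval, from 0.64 to 0.80 for v2 from 0.65 to 0.88 for v3 against v1 and from -0.017 to 0.080 for v3 against v2. Among peaks wider than 500 bp, 8 of the 9 genes had a peak by an end in v1, without Atp10a, and 9 in v2 and v3. Of the 63 whole bins of 100 kb in the locus, which end before Ndn, 0 lacked a peak in all 3 lists, also at 50 and 200 kb. No paired analysis was possible because each version has 1 library. Without replicates or depth, differences between versions and between these libraries cannot be told apart, and ratios of genes with few peaks are not fixed by the data.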
